A study of Rattus norvegicus with 10 samples.

Results

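The unfolded protein and heat shock genes are 38 genes of protein folding and its stress responses, chosen by name, and 35 of them were measured among 10793 genes tested on Affymetrix Rat Genome 230 2.0 arrays. A gene was read by the probe set that is annotated to it alone and, of several, by the one with the highest mean log2 signal over the 10 arrays. Hspa8, Hspa1b and Hsp90aa1 had only probe sets shared with another gene, so no values are given for them. The 35 genes fall into 13 chaperones and folding enzymes of the endoplasmic reticulum (ER), 7 regulators and degradation factors of the unfolded protein response, 6 genes of the amino acid response, 7 cytosolic heat shock genes and the 2 genes of the mitochondrial chaperonin. All of them lay above the signal limit for testing, so none was lost to the filter.

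The samples were 5 total tumours, taken at sacrifice at an age of 19 weeks, and 5 needle (Trucut) biopsies of the same tumours, taken at 12 weeks when a tumour had reached 2 cm3. Each tumour is called by its label (31D3, 32D1, 37I1, 50I1 or 52I4). All came from female Sprague-Dawley rats, an outbred stock, given a single oral dose of 100 mg/kg of 7,12-dimethylbenz(a)anthracene (DMBA), a carcinogen that induces mammary tumours, with no other treatment, so there is no group without DMBA and no normal mammary gland. The tumours were chosen by histology (Bloom-Richardson grade II), and a biopsy measured 0.7 cm by 2.5 mm. Each sample was 1 array, and values are log2 signals as the authors deposited them after RMA normalization. Array medians lay between 5.99 and 6.12 and correlations between arrays between 0.952 and 0.989, and the number of arrays limits the precision. Since the total tumours were also the later and older samples and their titles carry another run of code numbers, these cannot be told apart. The titles do not say what the codes stand for. Labels call these late samples total tumours but do not say how they were taken, while the series text speaks of a late needle sample. If the way of sampling differed, its part cannot be told apart either. Whether each tumour grew in its own rat is not given, so a p-value here refers to the spread among these 5.

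Proteins that enter the ER are folded there by chaperones such as the HSP70 protein BiP, encoded by Hspa5, and their disulfide bonds are formed by protein disulfide isomerases. When unfolded protein builds up, ATF6, the spliced form of XBP1 and ATF4 switch on genes for chaperones, for the removal of misfolded protein and for amino acid supply. ATF4 is also made when amino acids run short or through other eIF2α kinases, so its targets can move apart from the chaperones. In the cytosol, the transcription factor HSF1 switches on a separate set of heat shock proteins. Mammary epithelium secretes milk protein and relies on the ER machinery for it.

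The role groups differ in which known stress elements stand at the gene starts, and the windows below are printed to show these elements. RefSeq promoter windows of 300 bases (250 before and 50 after the gene start, build GRCr8) were at hand for 31 of the 38 genes. They were searched on both strands for the ER stress response element ERSE (CCAAT, 9 free bases, CCACG), its variant ERSE-II (ATTGG, 1 free base, CCACG), the core of the unfolded protein response element UPRE (TGACGTGG), the amino acid response element (TGATGNAA) and the heat shock element (GAA, TTC and GAA, or TTC, GAA and TTC, with 2 free bases between the blocks). Capitals mark the matches. Hspa5 (chr3:38452766-38453065, plus strand) and Hsp90b1 (chr7:23012244-23012543, minus strand) stand for the ER chaperones with an ERSE, which Hsp90b1 has 2 times. Creld2 (chr7:121789134-121789433, plus strand) carries its ERSE on the opposite strand, and Herpud1 (chr19:10614658-10614957, minus strand) carries an ERSE-II together with an amino acid response element.
Hspa5: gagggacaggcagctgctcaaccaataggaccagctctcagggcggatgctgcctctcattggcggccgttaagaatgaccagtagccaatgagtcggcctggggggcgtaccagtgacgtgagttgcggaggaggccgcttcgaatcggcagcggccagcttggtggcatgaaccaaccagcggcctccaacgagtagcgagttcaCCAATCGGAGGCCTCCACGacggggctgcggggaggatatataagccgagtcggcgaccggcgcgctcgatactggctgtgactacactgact
Hsp90b1: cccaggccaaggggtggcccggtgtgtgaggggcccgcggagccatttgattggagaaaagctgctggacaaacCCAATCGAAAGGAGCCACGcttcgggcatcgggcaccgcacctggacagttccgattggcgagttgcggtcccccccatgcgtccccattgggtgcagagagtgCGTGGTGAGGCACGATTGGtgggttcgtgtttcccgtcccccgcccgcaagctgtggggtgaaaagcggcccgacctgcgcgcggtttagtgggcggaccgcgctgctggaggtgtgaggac
Creld2: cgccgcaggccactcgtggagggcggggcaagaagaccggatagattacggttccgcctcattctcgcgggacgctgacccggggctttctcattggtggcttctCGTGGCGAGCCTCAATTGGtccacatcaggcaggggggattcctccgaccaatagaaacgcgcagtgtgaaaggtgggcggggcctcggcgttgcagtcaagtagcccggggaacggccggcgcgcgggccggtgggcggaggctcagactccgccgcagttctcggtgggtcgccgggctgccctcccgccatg
Herpud1: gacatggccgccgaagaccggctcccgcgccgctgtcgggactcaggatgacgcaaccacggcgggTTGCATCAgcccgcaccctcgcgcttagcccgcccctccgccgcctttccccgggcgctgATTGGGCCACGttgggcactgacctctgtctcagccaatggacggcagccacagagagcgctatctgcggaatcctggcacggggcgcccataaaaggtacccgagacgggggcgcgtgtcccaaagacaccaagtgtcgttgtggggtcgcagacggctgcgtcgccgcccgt

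Chac1 (chr3:126795881-126796180, plus strand) stands for the amino acid response genes with a match and Hsph1 (chr12:10427118-10427417, plus strand) for the cytosolic heat shock genes with a match. Hspe1 (chr9:64084077-64084376, plus strand) stands for the mitochondrial chaperonin. The element of Hspe1 holds 2 overlapping matches, and the same stretch (chr9:64084262-64084279) lies in the window of its neighbour Hspd1, which is read in the opposite direction.
Chac1: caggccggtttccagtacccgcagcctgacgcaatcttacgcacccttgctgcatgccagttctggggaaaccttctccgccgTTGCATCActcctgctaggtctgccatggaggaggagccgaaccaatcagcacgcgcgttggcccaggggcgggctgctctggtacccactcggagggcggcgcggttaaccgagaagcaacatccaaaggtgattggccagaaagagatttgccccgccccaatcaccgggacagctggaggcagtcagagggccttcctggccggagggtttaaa
Hsph1: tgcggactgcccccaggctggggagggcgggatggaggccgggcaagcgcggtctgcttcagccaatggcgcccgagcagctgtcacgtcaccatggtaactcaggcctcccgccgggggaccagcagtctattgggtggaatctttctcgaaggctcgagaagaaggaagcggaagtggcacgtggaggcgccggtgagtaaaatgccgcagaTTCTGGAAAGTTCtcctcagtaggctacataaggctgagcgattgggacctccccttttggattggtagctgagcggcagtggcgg
Hspe1: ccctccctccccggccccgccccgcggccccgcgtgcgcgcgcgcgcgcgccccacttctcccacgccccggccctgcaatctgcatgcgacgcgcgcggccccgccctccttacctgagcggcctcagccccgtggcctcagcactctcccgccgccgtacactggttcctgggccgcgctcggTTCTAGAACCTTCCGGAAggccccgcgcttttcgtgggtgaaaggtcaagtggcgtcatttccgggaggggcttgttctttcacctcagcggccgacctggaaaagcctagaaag

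An ERSE was found in 5 of 10 ER chaperone windows (Hspa5, Hsp90b1, Calr, Canx and Creld2), against 0.0765% of all 27457 promoters in the table. In the regulator group it was found in Xbp1 and Dnajc3, 2 of 6 windows. An ERSE-II lay in Dnajb11 and Hyou1 (2 of 10 ER chaperone windows) and in Herpud1 (1 of 6 regulator windows), against 0.0546% of all promoters. The UPRE core was found in Hyou1, where it overlaps an ERSE-II, and in Bag3, against 0.637% of all promoters. The amino acid response element lay in Trib3 and Chac1 (2 of 6 amino acid response windows) and in Herpud1, against 3.82% of all promoters. Atf4, Ddit3, Asns and Sesn2 had no match to it. Heat shock elements lay in Hspa8, Hsph1 and Dnaja1 (3 of 7 cytosolic windows) and in both mitochondrial windows, against 0.736% of all promoters. In these windows, no ERSE or ERSE-II was found in a cytosolic or mitochondrial gene and no heat shock element in an ER gene. A match describes letters in a window and is not a measured binding site, and motifs outside the window were not searched.
The ERSE matches of the windows not printed in full are as follows, each in the direction of its gene; that of Calr lies on the opposite strand.
Calr: CGTGGTCGACCCTGATTGG
Canx: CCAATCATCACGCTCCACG
Xbp1: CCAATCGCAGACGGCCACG
Dnajc3: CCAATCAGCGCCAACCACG

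Between total tumours and biopsies, no gene of the group passed the test. Of 35 genes, 21 averaged higher in the total tumours and 14 lower, beside 51.2% of all genes that averaged higher, and the median log2 difference (total tumour minus biopsy) was 0.03, beside 0.0039 over all 10793 genes. After Benjamini-Hochberg adjustment over all probe sets in limma's paired fit, 0 genes had an adjusted p under 0.05, as did 0% of all 18625 probe sets, and the lowest adjusted p was 0.772. At an unadjusted p under 0.05 there were 3 of 35 genes, beside 4.17% of all genes. Asns was the one of these with a higher mean in the total tumours, where the share of all genes is 1.61%. Xbp1 and Herpud1 had lower means, where the share of all genes is 2.56%. Leaving out a tumour took the count of 3 to 0 (without 31D3, without 50I1 or without 52I4) or to 2 (without 37I1). The methods' paired t-test gave 2, with 0 after Benjamini-Hochberg adjustment. The total tumours and the biopsies did not separate for any of the 35 genes, beside 0.417% of all genes, and 2 of 35 genes (Asns and Herpud1) kept 1 direction over the 5 pairs, beside 5.83% of all genes.

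Pair differences had opposite directions in different tumours. In 31D3, 30 of the 35 genes were higher in the total tumour than in its biopsy, and in 37I1 28 were. In 32D1 31 were lower, in 52I4 31 were lower and in 50I1 23 were lower. Over all genes tested, the share that was higher lay close to even in each tumour, between 48.56% in 32D1 and 50.43% in 31D3. The median log2 difference of the 35 genes was 0.50 in 31D3, -0.26 in 32D1, 0.24 in 37I1, -0.12 in 50I1 and -0.20 in 52I4, beside medians of all genes between -0.0112 and 0.0042. With each array centred on its median, an alternative added after the values were seen, the counts of higher genes were 31, 9, 27, 16 and 7 in the order 31D3, 32D1, 37I1, 50I1 and 52I4, and no tumour's median changed sign.

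**Figure D1:**
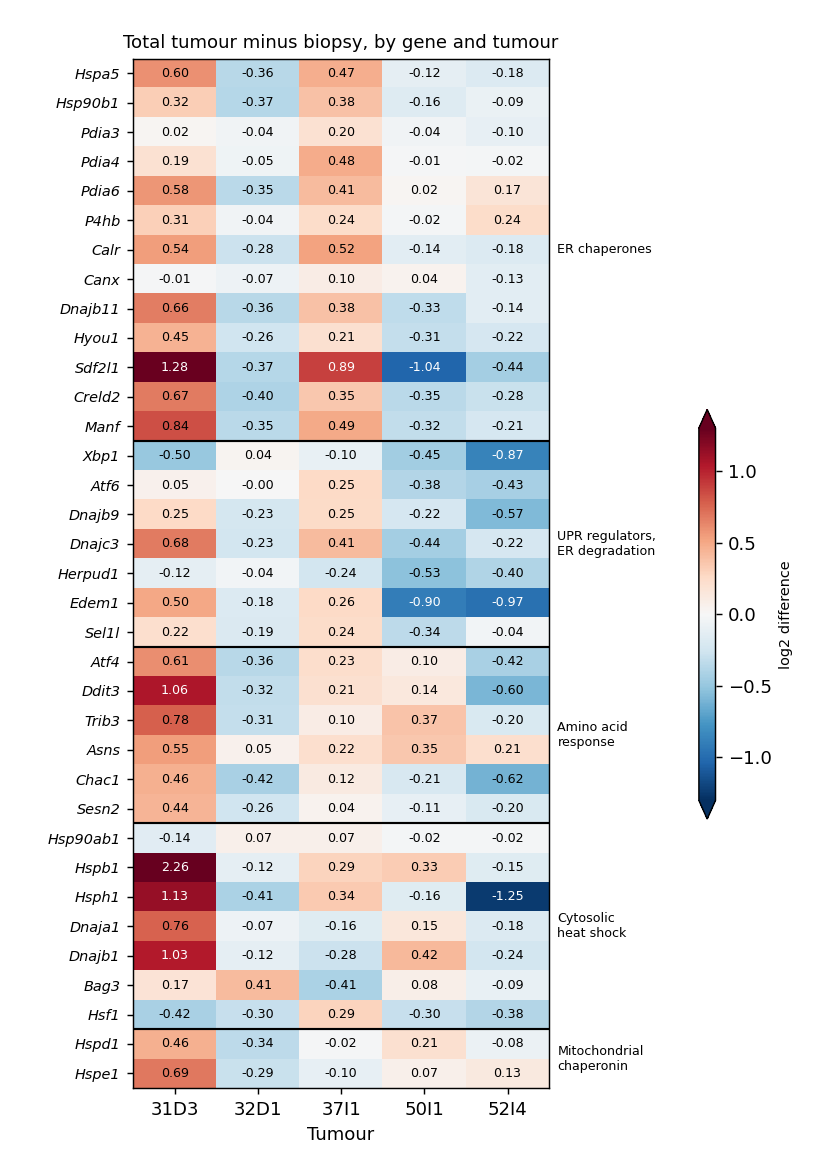
Total tumour minus biopsy difference in log2 signal for each of the 35 measured genes (rows, by role) in each of the 5 tumours (columns), with the value printed in the cell. Red is higher and blue lower in the total tumour, and the colour scale ends at 1.3 in either direction. The columns of 31D3 and 37I1 are mostly red among the ER chaperones and those of 32D1, 50I1 and 52I4 mostly blue, while Hspb1 reached 2.26 in 31D3.

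Below, values in every sample follow the order 31D3, 32D1, 37I1, 50I1 and 52I4. The ER chaperones shared a direction within a tumour. In 37I1 all 13 were higher in the total tumour and in 31D3 12 of 13 were, with medians of 0.38 in 37I1 and 0.54 in 31D3. In 32D1 all 13 were lower, with a median of -0.35, and in 50I1 and in 52I4 11 of 13 were lower, with a median of -0.14 in each. With arrays centred, 10 of 13 were lower in 32D1, 8 in 50I1 and 10 in 52I4. These counts read each gene by 1 probe set. Another probe set of Canx differed by -0.14 in 37I1, and another of Pdia3 by 0.25 in 32D1. The other probe set of Hyou1 kept the direction in both tumours. Of 12 marker lists, those of T cells and macrophages had the same sign as the ER chaperone medians in all 5 tumours, and no other list did. This match was noticed in these values and was not tested. The 6 measured T cell markers differed on average by 1.63, -0.54, 2.09, -1.71 and -0.95, and the 6 macrophage markers by 0.97, -0.54, 1.90, -1.61 and -0.47. The 2 plasma cell markers above the signal limit differed by 1.38, 0.25, 2.34, -1.84 and -0.60, with the opposite sign in 32D1. The 7 fibroblast markers differed by 0.85, -0.26, 2.61, -1.28 and 1.53, with the opposite sign in 52I4. The 3 measured endothelial markers differed by 0.37, -0.52, 0.44, -0.96 and 1.04, also with the opposite sign in 52I4. The 7 milk genes differed by 0.41, -3.50, 0.10, 1.35 and -0.06, with the opposite sign in 50I1. The part of these cells in the chaperone differences was not tested. Over the pairs the chaperone differences cancelled: the group's median difference was 0.06, with 10 genes averaging higher and 3 lower, and single genes lay between -0.03 and 0.17. Without tumour 31D3 the median was -0.05, without 37I1 it was -0.04, and with array weights it was -0.03.

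Hspa5, which encodes BiP, had log2 signals of 12.17, 12.01, 11.95, 12.14 and 11.96 in the total tumours, against 11.58, 12.37, 11.48, 12.26 and 12.14 in the biopsies. Its total tumours lay close together, while the biopsies of 31D3 and 37I1 lay below all other samples, and the difference over pairs was 0.08 (SE 0.169), with an adjusted p of 0.961 in limma. Pdia6, a protein disulfide isomerase, had 11.68, 11.61, 11.77, 11.88 and 11.81 in the total tumours, against 11.10, 11.97, 11.36, 11.86 and 11.64 in the biopsies, and again the biopsies of 31D3 and 37I1 were the lowest 2 of the 10 samples. Its difference of 0.17 (SE 0.15) was the largest of the group but missed the threshold, with an adjusted p of 0.896 in limma.

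P4hb, a protein disulfide isomerase that is also a subunit of the collagen prolyl hydroxylase, had signals of 12.24, 12.17, 12.27, 12.10 and 12.01 in the total tumours, against 11.93, 12.21, 12.03, 12.12 and 11.77 in the biopsies. Here the biopsy of 52I4 was the lowest, and the ranges overlapped with a difference of 0.15 (SE 0.0988) and an adjusted p of 0.873 in limma. Pdia4, another isomerase, had 10.13, 10.57, 10.58, 10.59 and 10.498 in the total tumours, against 9.93, 10.62, 10.10, 10.60 and 10.52 in the biopsies. Its lowest samples were both samples of 31D3 and the biopsy of 37I1, and the difference was 0.12 (SE 0.113). Hyou1, a large HSP70-like chaperone of the ER, had 8.02, 7.86, 7.62, 8.02 and 7.82 in the total tumours, against 7.57, 8.12, 7.41, 8.33 and 8.05 in the biopsies, with the lowest signals in the biopsies of 37I1 and 31D3. Its difference was -0.03 (SE 0.143), and 0.08 in its other probe set.

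Sdf2l1, an ER protein found in chaperone complexes, was singled out after its values were seen, since it had the widest range of the ER chaperones. Its signals were 10.09, 9.17, 9.48, 8.89 and 9.10 in the total tumours, against 8.81, 9.53, 8.59, 9.93 and 9.54 in the biopsies. Its highest sample was the total tumour of 31D3 and its lowest the biopsy of 37I1, and the pair differences of 1.28, -0.37, 0.89, -1.04 and -0.44 averaged 0.06 (SE 0.353). Manf, a secreted ER stress protein, and Creld2, an ER protein with EGF-like domains, were likewise higher in 31D3 and 37I1 and lower in the other tumours. Manf differed by 0.84, -0.35, 0.49, -0.32 and -0.21 and Creld2 by 0.67, -0.40, 0.35, -0.35 and -0.28. By the probe sets used, Canx, the lectin chaperone calnexin, and Pdia3, the isomerase that works with it, varied least. Their ranges were 0.17 and 0.23 over the 10 samples. The other probe set of Pdia3, dimmer with a mean of 6.96, differed more, by 0.39, 0.25, 0.48, -0.18 and -0.13. Hsp90b1 (the ER HSP90), Calr (calreticulin, the soluble partner of calnexin) and Dnajb11 (a cochaperone of BiP) had differences of 0.02 (SE 0.138), 0.09 (SE 0.163) and 0.04 (SE 0.18).

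For 12 of the 13 ER chaperones, the biopsies of 31D3 and 37I1 were the 2 lowest of the 5 biopsies, which holds for 19.6% of all genes tested. The exception was P4hb. The same 2 biopsies were the lowest for 3 of 7 regulators, 2 of 6 amino acid genes, 4 of 7 heat shock genes and both mitochondrial genes. Over all members this held for 23 of 35, so it was not particular to the ER chaperones. This pattern was noticed in these values and was not tested. The 7 fibroblast markers averaged 7.81 in the biopsy of 37I1, the lowest of the 5 biopsies, and 10.23 in that of 31D3, where 52I4 was lower at 10.06. Of 8 plasma cell markers, a cell type rich in ER, 2 lay above the signal limit, while Mzb1, Tnfrsf17 and Pou2af1 lay below it. These 2 averaged 6.32 to 8.53 in the total tumours and 5.65 to 8.49 in the biopsies, with 5.65 in 37I1 and 7.15 in 31D3. The 7 milk genes averaged 7.06 to 11.12 in the total tumours and 7.52 to 10.55 in the biopsies, with 7.52 in the biopsy of 31D3 and 10.43 in that of 37I1. Of 7 skeletal muscle markers, the 2 above the limit averaged 11.28 in the biopsy of 37I1, beside 7.24 to 9.34 in the other biopsies. The T cell markers averaged 5.00 in the biopsy of 37I1 and 7.82 in that of 31D3, within 5.00 to 8.04 in the biopsies. The macrophage markers averaged 7.40 and 8.90 in the same order, within 7.40 to 9.71. Of the 12 marker lists, 0 had 31D3 and 37I1 as the lowest 2 biopsies. The part of cell mixture in the chaperone levels was not tested, and in these bulk samples fewer cells of a type and less RNA per cell cannot be told apart.

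**Figure D2:**
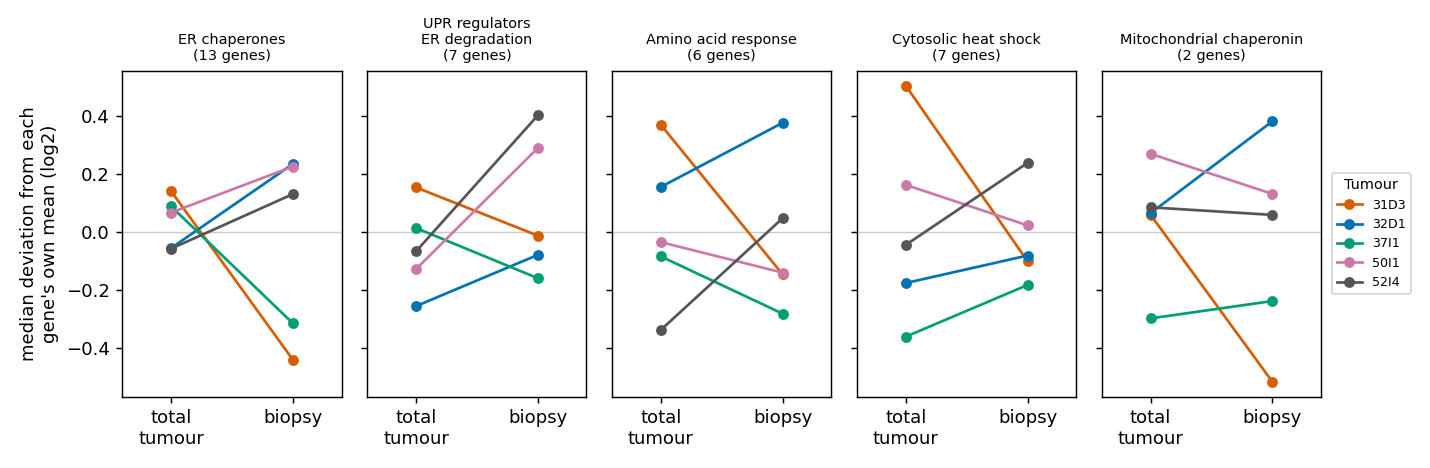
Level of each role group in every sample, as the median over its genes of the log2 deviation from each gene's own mean over the 10 arrays, with the total tumour on the left and the biopsy on the right and a line for each tumour. The ER chaperones of the biopsies spread from -0.44 (31D3) to 0.24 (32D1), while those of the total tumours lie between -0.06 and 0.14. The heat shock genes stand highest in the total tumour of 31D3, at 0.51.

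Among the regulators and ER degradation factors, 6 of 7 genes averaged lower in the total tumours and 1 higher, with a median difference of -0.11. All 7 were lower in 50I1 and in 52I4 (medians -0.44 and -0.43), 6 of 7 were lower in 32D1, and 5 of 7 were higher in 31D3 and in 37I1. With arrays centred, 4 of 7 were lower and 3 higher in 32D1, and 6 of 7 were lower in 52I4. Xbp1, a transcription factor of the unfolded protein response and of secretory cells, had signals of 11.84, 12.03, 12.36, 12.19 and 12.11 in the total tumours, against 12.33, 11.99, 12.46, 12.64 and 12.97 in the biopsies. It was lower in 4 of 5 total tumours, most in 52I4, and the ranges overlapped. The difference was -0.37 (SE 0.149), with an unadjusted p of 0.0428 and an adjusted p of 0.799 in limma. The array reads total Xbp1 and does not separate the spliced form that the stress sensor IRE1 produces.

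Herpud1, a membrane protein of ER-associated degradation, was lower in 5 of 5 total tumours, the one gene of the 7 that was. Its signals were 9.67, 9.17, 9.34, 9.22 and 9.52 in the total tumours, against 9.79, 9.21, 9.58, 9.75 and 9.92 in the biopsies. The ranges overlapped, with 52I4 the highest biopsy and 31D3 the highest total tumour, and the difference was -0.26 (SE 0.107), with an unadjusted p of 0.0458 and an adjusted p of 0.812 in limma. With each array centred on its median, the unadjusted p in limma was 0.0549 for Xbp1 and 0.0739 for Herpud1. In 31D3, where 12 of 13 ER chaperones were higher, Xbp1 differed by -0.50 and Herpud1 by -0.12. In 37I1, where 13 of 13 were higher, Xbp1 differed by -0.10 and Herpud1 by -0.24.

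Dnajb9, an ER cochaperone that restrains IRE1, had 9.22, 8.39, 8.80, 8.71 and 8.82 in the total tumours, against 8.96, 8.62, 8.56, 8.94 and 9.39 in the biopsies, and its difference was -0.11 (SE 0.148). Edem1, which directs misfolded glycoproteins to degradation, differed by 0.50, -0.18, 0.26, -0.90 and -0.97, and all 3 of its probe sets averaged lower in the total tumours. Dnajc3, a cochaperone of BiP also known to inhibit eIF2α kinases, followed the chaperones, with 0.68, -0.23, 0.41, -0.44 and -0.22. Sel1l, the adaptor of the ubiquitin ligase HRD1, and Atf6, the membrane-bound stress sensor and transcription factor, had differences of -0.02 (SE 0.12) and -0.10 (SE 0.131).

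In the amino acid response group all 6 genes were higher in the total tumours of 31D3 and 37I1 than in the biopsies, with medians of 0.58 and 0.17, and 5 of 6 were lower in 32D1 and in 52I4. In 50I1 the group split, with 4 higher and 2 lower, where 11 of 13 ER chaperones were lower. With arrays centred, 5 of 6 were higher in 37I1. The median difference over pairs was 0.06, and it was -0.12 without 31D3 and -0.07 with array weights. All 6 genes had their highest total tumour signal in 31D3, where 19.96% of all genes tested do, and 5 of 6 had their highest biopsy signal in 32D1, beside 24.01% of all genes.

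Asns, asparagine synthetase and a target of ATF4, was higher in 5 of 5 total tumours. Its signals were 8.80, 8.79, 8.72, 8.56 and 8.27 in the total tumours, against 8.25, 8.74, 8.501, 8.21 and 8.06 in the biopsies. Tumour 52I4 was the lowest in both groups, the ranges overlapped, and the difference was 0.28 (SE 0.103), a fold of 1.21, with an unadjusted p of 0.0338 and an adjusted p of 0.772 in limma. In 32D1 and 52I4, Asns was higher by 0.05 and 0.21 in the total tumour while the 5 other genes of the group were lower. Leaving out a tumour moved the difference between 0.21 (without 31D3) and 0.33 (without 32D1).

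Atf4, the transcription factor at the head of this response, had 11.96, 11.21, 11.43, 11.39 and 11.24 in the total tumours, against 11.36, 11.58, 11.20, 11.29 and 11.66 in the biopsies, and the total tumour of 31D3 stood above all other samples. Its mean difference of 0.03 (SE 0.171) was -0.11 without 31D3. Ddit3, which encodes the death-promoting factor CHOP, had 8.31, 7.49, 7.23, 7.38 and 6.79 in the total tumours, against 7.26, 7.81, 7.01, 7.25 and 7.39 in the biopsies. Its highest sample was the total tumour of 31D3 and its lowest that of 52I4, the pair differences ran from 1.06 in 31D3 to -0.60 in 52I4, and the mean was 0.10 (SE 0.236). Trib3, a pseudokinase induced by ATF4 and CHOP, had 6.46, 6.36, 6.20, 5.99 and 5.58 in the total tumours, against 5.68, 6.67, 6.10, 5.61 and 5.78 in the biopsies. Its signals were near the limit of 5.15 for testing, 2 of its 3 probe sets were below it, and its difference was 0.15 (SE 0.175). Chac1, which degrades glutathione, and Sesn2, a stress-induced inhibitor of mTORC1, had differences of -0.13 (SE 0.172) and -0.02 (SE 0.127).

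**Figure D3:**
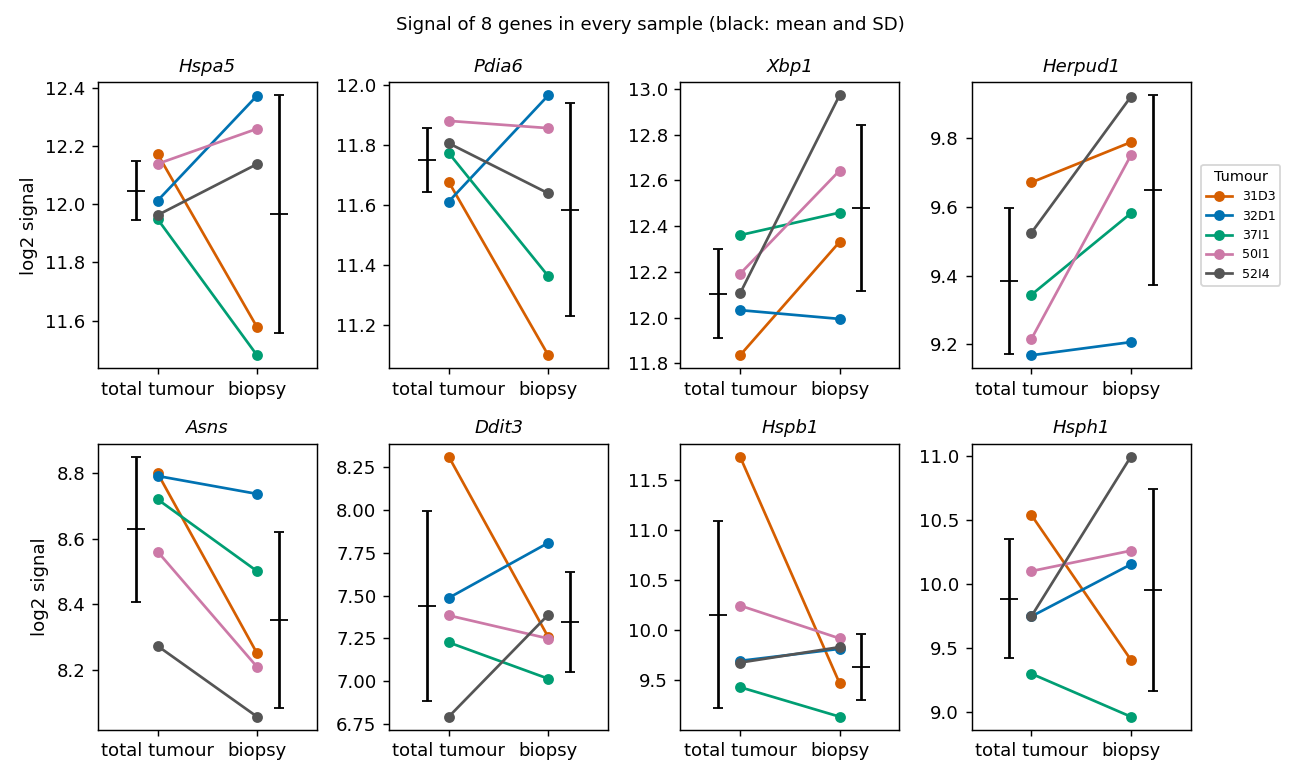
Log2 signals of 8 genes in every sample, total tumours on the left and biopsies on the right of each panel, joined by tumour, with the mean and SD of each group in black and a separate vertical scale for each gene. Hspa5 and Pdia6 spread more among the biopsies than among the total tumours, Asns is higher and Herpud1 lower in the total tumour of every pair, and Hspb1 and Ddit3 stand highest in the total tumour of 31D3.

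The total tumour of 31D3 held the highest total tumour signal for 5 of the 7 cytosolic heat shock genes, beside 19.96% of all genes. For Hsp90ab1 it held the lowest signal of the 10 samples, and Hsf1 was not highest there either. Hspb1, the small heat shock protein HSP27, had 11.73, 9.69, 9.43, 10.24 and 9.68 in the total tumours, against 9.47, 9.81, 9.14, 9.92 and 9.83 in the biopsies. The total tumour of 31D3 was 2.26 above its biopsy, and the next highest sample was the total tumour of 50I1. The group means were 10.15 ± 0.93 in the total tumours and 9.63 ± 0.33 in the biopsies (SD, n = 5 each). The difference of 0.52 (SE 0.36) did not pass (adjusted p 0.873 in limma) and was 0.09 without 31D3. Dnajb1, the HSP40 cochaperone that is a sensitive target of HSF1, was singled out after its values were seen. Its signals were 11.20, 9.90, 9.85, 10.42 and 10.12 in the total tumours, against 10.17, 10.01, 10.14, 10.001 and 10.36 in the biopsies, with the total tumour of 31D3 again the highest of the 10. Dnaja1, another HSP40, was also highest in that sample and differed by 0.76, -0.07, -0.16, 0.15 and -0.18.

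Hsph1, the HSP110 chaperone, had 10.54, 9.75, 9.30, 10.10 and 9.75 in the total tumours, against 9.41, 10.15, 8.96, 10.26 and 10.99 in the biopsies. Its highest sample was the biopsy of 52I4, and its pair differences of 1.13 in 31D3 and -1.25 in 52I4 nearly cancelled in a mean of -0.07 (SE 0.321). Bag3, a cochaperone of HSP70 in selective autophagy, had 9.61, 9.36, 8.66, 9.29 and 9.44 in the total tumours, against 9.44, 8.95, 9.07, 9.21 and 9.53 in the biopsies. Both samples of 37I1 were among its lowest 3, and its difference was 0.03 (SE 0.134). Hsp90ab1, the constitutive cytosolic HSP90, had a range of 0.36 over the 10 samples and a difference of -0.01 (SE 0.086). Hsf1, the heat shock transcription factor, had 7.53, 7.32, 7.79, 7.64 and 7.65 in the total tumours, against 7.95, 7.62, 7.51, 7.93 and 8.03 in the biopsies. It was lower in 4 of 5 total tumours, 31D3 included, and differed by -0.22 (SE 0.129), with an adjusted p of 0.85 in limma. Without 37I1 its difference was -0.35, with an unadjusted p of 0.0124 in limma. Hsf1 activity is set largely by its protein, which the array does not read. In the biopsies, 52I4 held the highest signal for 6 of the 7 genes, beside 22.19% of all genes, and all 7 were lower in its total tumour, or 6 of 7 with arrays centred.

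The total tumour of 31D3 was also the highest of the 10 samples for T cell markers (6 of 7 measured, averaging 9.45, beside 6.33 to 7.09 in the other total tumours and 5.00 to 8.04 in the biopsies). For the 6 macrophage markers it averaged 9.87, beside 8.10 to 9.30 in the other total tumours and 7.40 to 9.71 in the biopsies. The 7 epithelial markers averaged 12.37 there, within the 12.30 to 12.62 of the total tumours, and 12.16 to 12.45 in the biopsies. Whether immune cells took part in its heat shock, Atf4 and Ddit3 signals was not tested.

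The genes of the mitochondrial chaperonin, Hspd1 (HSP60) and Hspe1 (HSP10), share 1 promoter region, as seen in the printed sequence. Hspd1 had 11.65, 11.73, 11.43, 11.93 and 11.66 in the total tumours, against 11.18, 12.08, 11.44, 11.72 and 11.74 in the biopsies. Hspe1 had 12.09, 12.01, 11.59, 12.22 and 12.12 in the total tumours, against 11.39, 12.30, 11.69, 12.16 and 11.99 in the biopsies. In both genes the lowest biopsy was 31D3, the highest biopsy 32D1, the lowest total tumour 37I1 and the highest total tumour 50I1. Their differences were 0.05 (SE 0.134) and 0.10 (SE 0.153). In 37I1, where all 13 ER chaperones were higher in the total tumour, Hspd1 differed by -0.02 and Hspe1 by -0.10.

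Set side by side within a tumour, the groups did not keep 1 order. The median difference of the ER chaperones minus that of the cytosolic heat shock genes was -0.22 in 31D3, -0.24 in 32D1, 0.31 in 37I1, -0.22 in 50I1 and 0.04 in 52I4. The amino acid response minus the ER chaperones gave 0.04, 0.03, -0.22, 0.26 and -0.17 in the same order. In 31D3 and 32D1 the ER and the amino acid groups thus had nearly equal medians, while in 37I1 the ER chaperones were further up and in 50I1 the amino acid genes were. These differences of medians were not tested.

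The spread of the ER chaperones was smaller among total tumours than among biopsies. The SD was larger in the biopsies for 12 of 13 ER chaperones, for all 7 regulators, for 4 of 6 amino acid genes and for 2 of 7 heat shock genes, beside 59.2% of all genes. For the ER chaperones the median SD was 0.12 among total tumours and 0.36 among biopsies. For the heat shock genes it was 0.36 among total tumours and 0.23 among biopsies, and over all genes 0.22 and 0.25 in the same order. The exception among ER chaperones was Canx, with an SD of 0.08 among total tumours and 0.03 among biopsies. These spreads rest on 5 samples a group and were not tested.

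**Figure D4:**
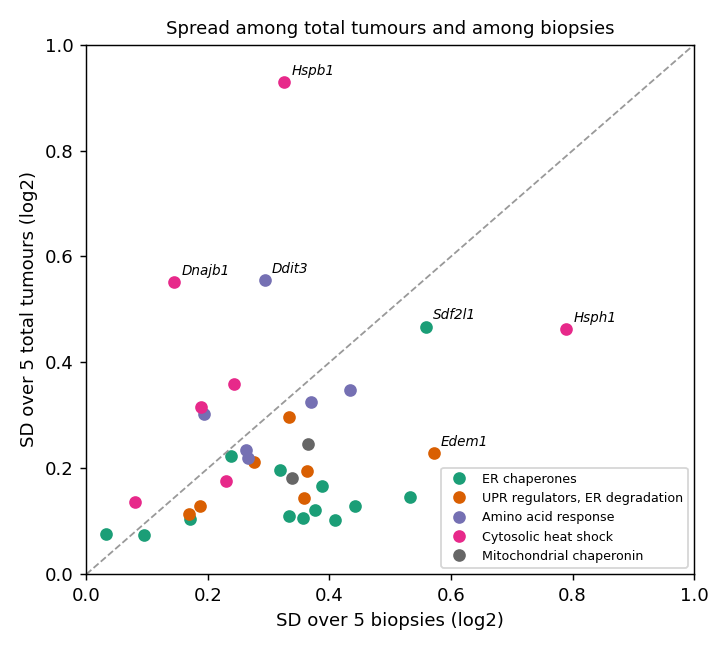
SD of the log2 signal over the 5 total tumours (vertical) against the SD over the 5 biopsies (horizontal) for the 35 genes, coloured by role, with a dashed line where both are equal. Of the ER chaperones 12 of 13 lie below the line, and 5 of 7 cytosolic heat shock genes lie above it, with Hspb1 at 0.93 and 0.33.

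No gene passed a test for differences between tumours that both samples of a tumour share. This test of tumour identity asked whether a gene differed between tumours by more than the 2 samples of a tumour did, after the moment was taken into account. Of the 35 genes 0 passed it after adjustment (lowest adjusted p 0.497 in limma), beside 0.0371% of all genes. None had an unadjusted p under 0.05, beside 10.1% of all genes, and the lowest unadjusted p, for Asns, was 0.0634. Of the variation of a gene over the 10 samples, a median of 49.4% lay between tumours, 2.28% between moments and 41.88% in neither, beside 52.94%, 5.15% and 36.03% over all genes. These are shares of sums of squares. Noise alone also puts a larger share between tumours than between moments, since there are more tumours than moments. Hsp90ab1, with 84.25% between tumours on a range of 0.36, and Sdf2l1, with 10.18%, were the ends of the group.

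Longer lists of pathway members held no gene past the test either. Of 65 other ER genes 60 were measured, 40 with a higher mean in the total tumours, beside 51.2% of all genes, and 20 with a lower. Their median difference was 0.04. At an unadjusted p under 0.05 in limma there were 0, beside 4.17% of all genes. Over the 5 pairs 2 of the 60 kept 1 direction, beside 5.83% of all genes. The genes with the smallest p were Derl1, a channel component of ER degradation (difference 0.22, SE 0.107, higher in 5 of 5 pairs), Sil1, the exchange factor of BiP (difference 0.19, SE 0.101), the ER prolyl isomerase Fkbp2 (difference 0.20, SE 0.115) and the ER reductase Dnajc10 (difference 0.21, SE 0.128). In 31D3 50 of the 60 were higher, and in 50I1 44 of the 60 were lower. In 52I4, where 11 of 13 chaperones were lower, 34 of the 60 were higher and 26 lower.

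Of 50 further amino acid response genes 48 were measured, 24 with a higher and 24 with a lower mean. Beside 4.17% of all genes, 1 of the 48 had an unadjusted p under 0.05 in limma. This was Phgdh, the first enzyme of serine synthesis, with a log2 signal of 7.95 ± 0.46 in the total tumours and 7.23 ± 0.60 in the biopsies (SD, n = 5 each). It was higher in 4 of 5 pairs by 0.72 (SE 0.256), with an unadjusted p of 0.0279 and an adjusted p of 0.739 in limma. Next were Atf5, a relative of ATF4 (difference 0.22, SE 0.0916, higher in 5 of 5 pairs), the amino acid transporter Slc38a2 (difference -0.27, SE 0.125, lower in 5 of 5 pairs) and the lipoprotein receptor Vldlr (difference 0.48, SE 0.287). No gene of this list passed after adjustment, and 2 of the 48 kept 1 direction over the 5 pairs, beside 5.83% of all genes.

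Of 65 further heat shock and cochaperone genes 54 were measured, 29 with a higher and 25 with a lower mean. At an unadjusted p under 0.05 in limma there were 0, beside 4.17% of all genes. Over the 5 pairs 4 of the 54 kept 1 direction, beside 5.83% of all genes. In 31D3 36 of the 54 were higher and 18 lower. Their median difference there was 0.10, beside 0.76 for the 7 cytosolic heat shock genes. The smallest p values belonged to Hmox1, the stress-induced heme oxygenase (difference 0.70, SE 0.292, with 1.72 in 31D3), the HSP90 cochaperone Fkbp4 (difference -0.25, SE 0.113, lower in 5 of 5 pairs), the HSP40 protein Dnajb6 (difference 0.18, SE 0.086, higher in 5 of 5 pairs) and the mitochondrial disaggregase Clpb (difference 0.19, SE 0.102). In the test of tumour identity 7 of these 54 had an unadjusted p under 0.05, beside 10.1% of all genes.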

How the data were processed

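Gene expression was read on 10 arrays, 1 per sample, from 5 total tumours and 5 biopsies of the same tumours. The authors deposited log2 signals of probe sets after RMA, per the submitters' processing notes. RMA brings the probe signals of the arrays onto 1 distribution, which can hide a change common to most transcripts, while medians of the deposited probe set values still differed between arrays (5.99 to 6.12). The range of values, 2.34 to 14.26, is that of a log2 scale, and they were used as they stood. For the RMA version and the chip definition, no source used here has an entry. The series text speaks of a late needle sample and the sample labels of a total tumour, and the labels were used.

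Of 31099 probe sets, 57 controls were left out, and of the other 31042, 20826 were annotated to 1 gene, 436 to several and 9780 to none. The dimmest 40% by mean signal (limit 5.15) were left out, which kept 18625. Total tumours and biopsies were compared with limma 3.58.1 (R 4.3.3), blocking on tumour, with Benjamini-Hochberg adjustment over these 18625 and a threshold of 0.05. Tumour identity was tested by the F statistic of the same fit. Pairing comes from the tumour names in the labels, and deviations from the group means correlated above 0.1 in 4 of 5 pairs (-0.21 to 0.34). The highest correlation between different tumours, 0.36, was above that of every pair, so the pairing rests on the labels. The steps were run on simulated data with planted changes and independent noise, without the tumour effects of real pairs. That run was a check of the code and is not used to support a result.

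The 38 genes, the role groups, the longer lists and the markers were chosen with earlier results of these data known. Values in every sample are given for Hspa5, Xbp1, Atf4, Ddit3 and Hsf1 and, in each role group, for the 2 genes with the largest mean difference and the 2 with the smallest p in the test of tumour identity. Of each longer list, up to 4 genes with the smallest p are named. Sdf2l1 and Dnajb1 were added after their values were seen, as were the pair differences printed for Manf, Creld2, Edem1, Dnajc3 and Dnaja1 and the ranges and shares given for Hsp90ab1, Canx and Pdia3. Promoter sequences are those of RefSeq, build GRCr8. No entry was at hand for Pdia3, Pdia6, Manf, Atf6, Hspa1b, Hsp90aa1 and Hsf1. The alternatives changed the filter, the block, the test (also that of the study's methods), the normalization or the summary of probe sets, used an intensity trend or array weights, or left out a tumour. Figures were drawn with matplotlib 3.10.9.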

Additional observations from a re-analysis of the deposited data

Results flagged for a closer look

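In 3 of 70 groups of 5 values, each 1 gene in 1 group, a sample lay far from the other 4, with a gap of over 0.71 of the group's range. Chance marks about 1 in 20 such groups. All 3 were the total tumour of 31D3. Pdia4 was low there, with a log2 signal of 10.13 where the next lowest total tumour had 10.4975. Atf4 was high, with 11.96 where the next highest had 11.43. Hsp90ab1 was low, with 13.09 where the next lowest had 13.35. No biopsy was marked for any of the 35 genes.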

How the results depend on the processing

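No gene passed the paired test or the test of tumour identity after adjustment under any alternative run. The count of 3 genes at an unadjusted p under 0.05 in limma was 0 without the tumour as a replicate block in the paired design, and 1 (Asns) with each array centred on its median. Over the settings without 1 tumour it lay between 0 and 3. It was 0 without 31D3, without 50I1 and without 52I4, 3 without 32D1, and 2 (Hsf1 and Xbp1) without 37I1. The block changed no call after adjustment. Of the single-gene differences that turned sign, the largest in size was that of Hsph1, at 0.23 without 52I4 where it was -0.07. Without 31D3 the median difference of the cytosolic heat shock genes was -0.05 where it was 0.03. That of the mitochondrial chaperonin was also -0.05 without 31D3, where it was 0.07. With array weights, Hspa5 was at -0.019, Atf4 at -0.078 and Ddit3 at -0.068. Hyou1 was at 0.0063 with arrays centred, 0.0091 with quantile normalization, 0.028 with the mean of its probe sets and 0.083 with its most variable probe set. Over the settings without 1 tumour, the difference lay between -0.047 and 0.19 for Hspa5, -0.11 and 0.14 for Atf4, -0.14 and 0.27 for Ddit3, -0.15 and 0.045 for Hyou1, -0.20 and 0.012 for Dnajb9, and -0.0097 and 0.26 for Trib3. It lay between -0.062 and 0.14 for Bag3, -0.37 and 0.23 for Hsph1, -0.050 and 0.20 for Hspe1, and -0.057 and 0.15 for Hspd1. The cause was not tested. Of the values for single genes or tumours recomputed under an alternative, 266 were rated as unchanged and 23 turned sign. With arrays centred, 2 counts of higher genes, in 32D1 and 52I4, moved (9 where 4 were counted and 7 where 4 were). For single genes, unchanged means the same direction and side of the threshold. Since no gene passed in any setting, the side could not set the settings apart. Counts of higher genes were rated by how far they changed. With 5 pairs the number of arrays limits every value, and signals near the limit of 5.15, such as those of Trib3, are least reliable.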
